A study of Mus musculus with 8 samples.

Results

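The cells described here are the striatal cells that the depositors annotated as NB, a class they name neural stem cells and neuroblasts. They were picked by that annotation alone, with the library taken from the annotation and the counts read from the library's matrix by barcode. There were 437 NB cells among 14690 annotated striatal cells of 10 types, or 2.97%. The cells came from 4 droplet single-cell RNA libraries, 2 from wild-type (WT) mice and 2 from Setd1a+/- littermates, each made from the pooled striatum of 2 mice. All were male C57BL/6N mice, with a labelled age of 8 to 10 weeks, although the study's methods give an older range. The Setd1a+/- mice carried 1 copy of a CRISPR-Cas9 frameshift in exon 15, ahead of the SET domain, bred from founder mice backcrossed to C57BL/6N. The labels call the tissue NAc (nucleus accumbens), whereas the study's own results describe dorsal and ventral striatum together. The NB cells numbered 105 and 63 in the WT libraries and 214 and 55 in the Setd1a+/- libraries (replicates 1 and 2 in each case).

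In the adult rodent brain, neural stem cells line the lateral ventricle next to the striatum. They are astrocyte-like cells that give rise to fast-dividing transit amplifying progenitors marked by Egfr. These in turn make neuroblasts, which switch on Dlx homeobox genes, Sox11 and the microtubule-binding protein Dcx, go on dividing for a time and migrate towards the olfactory bulb to become GABAergic interneurons. Setd1a encodes a methyltransferase of histone H3 lysine 4.

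Setd1a was sparsely counted in these libraries. Over all annotated striatal cells, the WT libraries held 13.4 and 15.2 CPM (UMIs, or unique molecular identifiers, of a gene scaled to a total of 1e+06 per sum), and the Setd1a+/- libraries 9.16 and 12.5 CPM. The NB cells held only 4, 2, 6 and 1 Setd1a UMIs (WT replicates 1 and 2, then Setd1a+/- replicates 1 and 2, the order used throughout), too few to test. The genotypes did not overlap over all annotated cells, but counts taken at the 3′ end lie outside the deleted part and do not check the labels. NB cells held a median of 2518 UMIs and 1264 genes, in the middle of the 10 types, and their median share of UMIs from ribosomal protein genes, 12.6%, was the highest of any type (3.47% to 9.36% in the others). Of the barcodes, 91 occurred in more than 1 striatal library, and 5 NB cells carried such a barcode.

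NB cells expressed markers of dividing cells and neuroblasts, and low levels of those of astrocyte-like stem cells. Pclaf, a partner of the replication clamp PCNA, was found in 369 of 437 NB cells (84.4%, Wilson 95% interval 80.7 to 87.5%; intervals here cover counting error only). Its level was 1863 and 2173 CPM in the WT libraries and 2023 and 2511 CPM in the Setd1a+/- libraries, against a mean of 24.6 CPM in the next type, oligodendrocyte progenitors. Mki67, which encodes the proliferation antigen Ki-67, had a UMI in 176 NB cells (40.3%), and in 0% to 1.46% of the cells of any other type. Dlx2 was found in 68 NB cells (15.6%), against 2.56% of interneurons, the next type. Sox11, a neuroblast transcription factor, was found in 412 cells (94.3%), and at least 1 of Dlx1, Dlx2, Dlx5, Dlx6 and Dlx6os1 in 328 cells (75.1%). In interneurons and D1 neurons the latter share was 41.0% and 40.6%, and the members differed. Dlx1 was found in 57.4% of NB cells and 10.1% of interneurons, Dlx5 in 25.2% of NB cells and 20.5% of D1 neurons, and Dlx6 in 5.72% of NB cells and 17.5% of D2 neurons. All 9 markers listed for NB cells had their highest mean in NB cells, and the lowest NB library lay more than 2-fold above every library of every other type for 8 of them.

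Markers of quiescent, astrocyte-like stem cells were low. Gfap and Hopx had no UMI in any of 437 NB cells, which allows a share of cells with a UMI of up to 0.686%. A Gfap UMI was found in only 10.2% of this study's astrocytes and a Hopx UMI in 2.57%, so at this depth these 2 genes say little about which cells express them. Slc1a3, a glutamate transporter of stem cells and astrocytes, was present in 161 NB cells (36.8%) at a mean of 218 CPM, against 1884 CPM in astrocytes. Aldoc had a mean of 44.5 CPM in NB cells and 6868 CPM in astrocytes. The ependymal gene Foxj1 was also at 0. Egfr, the growth factor receptor of transit amplifying progenitors, was found in 66 NB cells (15.1%), 10.6% of interneurons and 5.25% of astrocytes. After thinning to 1000 UMIs these shares were 7.78%, 2.44% and 2.45%. The cells are called NB cells below.

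**Figure D1:**
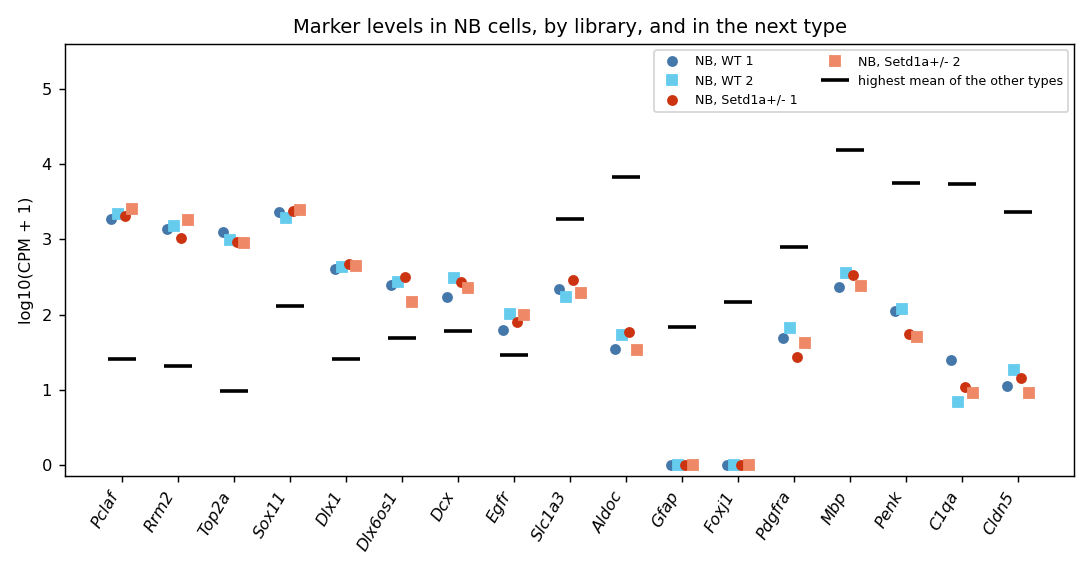
Levels of 17 marker genes in NB cells of each library (points, log10 of CPM + 1) and the highest mean among the 9 other striatal types (black bars). The 8 genes at the left, from Pclaf to Egfr, lie above the highest of these means in all 4 libraries, while Gfap and Foxj1 are at 0 in each.

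Genes of cell division led those that stood out in NB cells. Of 3461 genes with at least 50 NB UMIs, 214 (6.18%) had a lowest NB library more than 2-fold above the highest library of any other type. No test was made of this, because the types were clustered on these same cells. Among the 25 genes with the highest ratio to the next type were, in order, Lockd, Spc25, Cdca5, Kif2c, Ccnb1, Top2a, Aurkb, Ska1, Aspm, Hist1h1b, Pclaf, Ube2c, Kif4, Pimreg, Pbk, Nusap1, Rrm2, Tk1, Cdca3, Kif20a, Cenpe, Prc1, Ckap2l and Tpx2. Lockd, a noncoding RNA next to the cell cycle inhibitor gene Cdkn1b, led with 791, 863, 656 and 856 CPM. Its next type, the endothelial cells, had a mean of 3.00 CPM.

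Several of these genes encode the machinery of the mitotic spindle and of chromosome segregation. Spc25, a kinetochore protein, stood at 648, 734, 499 and 774 CPM. Top2a, which untangles sister chromatids, stood at 1242, 969, 929 and 897 CPM and was found in 66.6% of NB cells. The cyclin gene Ccnb1 stood at 516, 423, 511 and 677 CPM. Rrm2, the regulated subunit of ribonucleotide reductase, represents S phase among them, with 1375, 1509, 1032 and 1826 CPM in 78.3% of cells. In each case the 4 NB libraries lay close together compared with the distance to the next type, whose mean was 4.31 CPM for Spc25, 8.69 CPM for Top2a, 4.21 CPM for Ccnb1 and 20.1 CPM for Rrm2.

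By list, among members with at least 50 NB UMIs, 48 of 56 G2 and M phase genes and 30 of 41 S phase genes lay above every other type by this 2-fold rule, against 6.18% of all such genes. The full lists held 61 and 50 genes. Of 20 chromatin genes of dividing cells (25 in full), 14 did so. Among these were the nucleosome-binding proteins Hmgn2, with a mean of 8229 CPM, and Hmgb2, with 4305 CPM, and the histone variant H2afz, with 6041 CPM. Of 15 transcription factors of GABAergic progenitors (30 in full), 5 did so. Dlx1 led them with 407, 429, 469 and 440 CPM against 24.8 CPM in interneurons, whereas Meis2, shared with medium spiny neurons, averaged 364 CPM in NB cells and 557 CPM in D1 neurons.

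Of 43 genes of neuroblast migration and the cytoskeleton, 26 had at least 50 NB UMIs. Of these 26, 3 (11.5%) lay above every other type and 12 (46.2%) had their highest mean in NB cells, against 6.18% and 36.7% of all 3461 genes, so these shares were not far from the background. Stmn1, which destabilizes microtubules, averaged 7021 CPM in NB cells and 3535 CPM in oligodendrocytes. Tuba1a was lower in NB cells (4068 CPM) than in newly formed oligodendrocytes (10262 CPM). Of 5 genes of the Notch pathway list (18 in full), 2 (40.0%) lay above every other type. These were Hes6 and Insm1, both of which promote neuronal differentiation, with means of 447 and 91.8 CPM. The summed full list stood at 787, 899, 880 and 937 CPM, against a mean of 970 CPM in endothelial cells. Mature neuron synaptic, GABA synthesis and signalling, and immediate early genes with at least 50 NB UMIs numbered only 7, 3 and 6. None of these had its highest mean in NB cells, nor did any other member of the full lists of 24, 15 and 16 genes. The GABA-synthesizing enzyme Gad2 averaged 133 CPM, against 564 CPM in D1 neurons.

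Marker genes of other cell types were read against the levels that unrelated types carried. Summed over 5 oligodendrocyte markers, NB cells held 703, 1163, 1034 and 554 CPM, against means of 264 to 657 CPM in the 7 types outside the oligodendrocytes and newly formed oligodendrocytes. Every NB library but Setd1a+/- replicate 2 thus lay above those means. The myelin gene Mbp alone had a UMI in 20.8% of NB cells, 22.3% of D1 neurons and 28.4% of interneurons. These shares were not matched for depth, with medians of 2518, 3167 and 4787 UMIs in that order. The summed level of 8 medium spiny neuron markers was 326, 323, 212 and 245 CPM, below the mean of every other type (398 CPM or more), and of 5 microglia markers 71.3, 29.4, 38.4 and 40.8 CPM. The 4 glutamatergic neuroblast markers (Eomes, Neurog2, Neurod1, Tbr1) summed to between 0 and 10.0 CPM. A small group of 19 NB cells (4.35%) carried at least 2 UMIs of the oligodendrocyte progenitor genes Pdgfra, Cspg4, Olig1 and Olig2. Of these 19 cells, 18 had no Dlx UMI and 10 had an Mki67 UMI.

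A group of 5 NB cells held many UMIs of a blood cell gene. Of these, 2 carried the immunoglobulin genes Igkc and Igha and the joining chain gene Jchain. The first, a cell of WT replicate 1, had 895 UMIs of Igkc, an immunoglobulin light chain gene, among 3101, and the second, a cell of Setd1a+/- replicate 1, had 773 among 2753. Neither had a UMI of Sox11 or Dlx1, and no other NB cell had an Igkc UMI. The other 3 carried Sox11 UMIs beside the blood gene. They were a WT replicate 2 cell with 636 UMIs of the globin gene Hbb-bs, a WT replicate 1 cell with 32 UMIs of the macrophage gene Lyz2, and a Setd1a+/- replicate 2 cell with 29 UMIs of the platelet gene Ppbp. The results below are also given without these 5 cells where that changed them.

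Progenitor and neuroblast markers were unevenly spread within the NB cells. An Egfr UMI without Dcx was found in 45 cells (10.3%), Dcx without Egfr in 163 (37.3%), both in 21 (4.81%) and neither in 208 (47.6%). The first group was deeper, with a median of 3206 UMIs against 2409 in the second, and was small, with 11, 5, 24 and 5 cells by library. These groups were cut from the counts themselves after the data were seen, so the following levels are a description.

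The libraries of the Dcx group lay above all of those of the Egfr group for 14 of 25 genes of neuroblast migration and the cytoskeleton (56.0%; Dcx itself left out, genes with at least 50 NB UMIs), against 5.35% of 3459 such genes in all. None lay the other way, and 11 overlapped, among them Dclk1, Elavl4 and Dpysl3. Of 16 stem cell and astroglial genes, 5 (Slc1a2, Cst3, Id1, Fabp7 and Slc1a3) were higher without overlap in the Egfr group, against 3.85% of all genes, and 11 overlapped. Of 6 immediate early genes, which are also induced by tissue dissociation, 3 (Fos, Jun and Egr1) were higher without overlap in the Dcx group, and the part of this in the other differences was not tested. Fos stood at 300, 710, 358 and 581 CPM with Dcx and at 88.2, 57.9, 289 and 157 CPM with Egfr. The genes given next were chosen after their values were seen. Hes6 stood at 999, 1043, 983 and 944 CPM in cells with Egfr and at 210, 186, 192 and 291 CPM in cells with Dcx. The brain lipid-binding protein gene Fabp7 stood at 882, 1970, 609 and 1023 CPM in the former and at 110, 118, 128 and 291 CPM in the latter. In neither gene did the 4 libraries of one group overlap those of the other. The order was the opposite for Sp8, Dlx6os1 and Tubb3. The transcription factor gene Sp8 was at 0, 0, 21.4 and 0 CPM with Egfr and at 130, 237, 269 and 242 CPM with Dcx. Dlx6os1, a noncoding RNA of the Dlx5 and Dlx6 locus, was at 0, 0, 74.8 and 0 CPM against 330, 439, 397 and 266 CPM. The neuron-specific tubulin gene Tubb3 stood at 176, 116, 374 and 0 CPM against 1001, 1183, 1139 and 654 CPM. The groups did not overlap in these genes either.

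Of 41 S phase genes none was apart between the groups, and of 56 G2 and M phase genes 4 (Hjurp, Nusap1, Ckap2 and Hmgb2) were higher with Dcx, a share (7.14%) near that of all genes (5.35%). The summed S phase list was 11930, 11530, 9330 and 6925 CPM with Egfr and 10123, 9073, 9905 and 11191 CPM with Dcx. The summed G2 and M phase list was 17131, 14716, 22614 and 17627 CPM in the former and 25633, 26323, 21701 and 22116 CPM in the latter, with overlap only through Setd1a+/- replicate 1. An Mki67 UMI was present in 40.0% of the first group and in 42.3% of the second.

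The question of which NB cells divide was put by splitting them on Mki67. The 176 cells with an Mki67 UMI were deeper than the 261 without, with medians of 2995 and 2182 UMIs. Many cells without an Mki67 UMI still expressed other cell cycle genes, since 131 of 261 (50.2%) had a Top2a UMI and 207 (79.3%) a Pclaf UMI. Among the Mki67 UMI-positive cells these shares were 90.9% and 92.0%. Only 51 NB cells (11.7%) had no UMI of Mki67, Top2a or Pclaf, and they were shallow, with a median of 1759 UMIs. The absence of an Mki67 UMI therefore does not mark a postmitotic cell at this depth.

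Cell cycle genes were also counted in single cells, scaled to 10000 UMIs per cell and with Mki67 left out. Cells with an Mki67 UMI had a median of 274 UMIs of the G2 and M phase list (quartiles 186 and 373), and those without had 121 (38.0 and 226). For the S phase list the medians were 92.5 (54.0 and 134) and 96.8 (48.9 and 155), so the quartiles lay over each other.

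**Figure D2:**
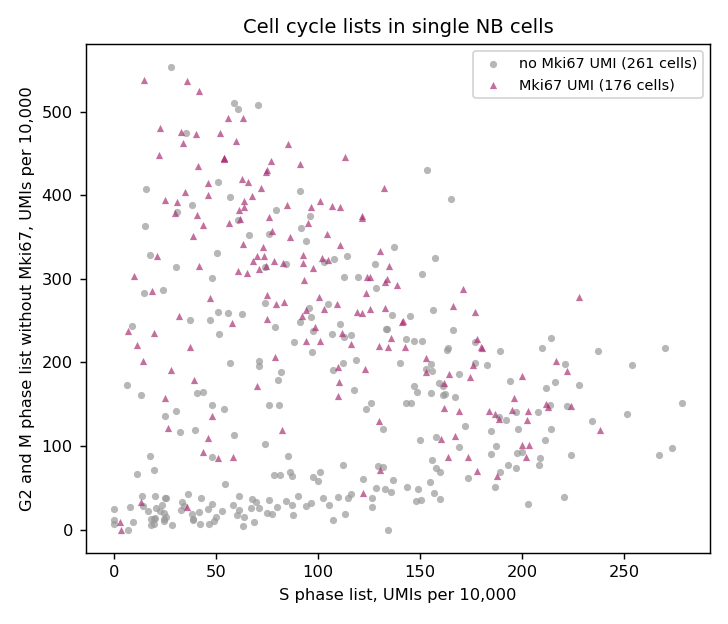
Each point is 1 NB cell, with its UMIs of the S phase list on the horizontal axis and of the G2 and M phase list on the vertical axis, both per 10000 UMIs of the cell (triangles, 176 cells with an Mki67 UMI; circles, 261 cells without). Triangles have a median of 274 on the vertical axis and circles 121, and most cells along the lower edge are circles.

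Genes of G2 and mitosis were higher in cells with an Mki67 UMI, and no S phase gene passed the test. Mki67, which set the classes, is itself on the G2 and M phase list. A rise of the other genes of that list was therefore partly built into the split, and the p-values do not account for this. UMIs were summed per library and class, giving 4 pairs of sums, and tested with edgeR's quasi-likelihood test with the library as a term (FDR, the Benjamini-Hochberg adjusted p, under 0.05 and fold change above 2). Of 2086 genes tested, with Mki67 itself left out, 30 rose (1.44%) and none fell (0.0%). At an unadjusted p under 0.05 there were 290 genes. DESeq2 called 15 rises, 13 of them among the 30, and no fall. Without the fold cutoff, 69 genes (3.31%) were higher and 6 (0.288%) lower. Of the 30 called genes, 26 (86.7%) were among the 214 that stood above every other striatal type (12.1% of those 214), whereas 169 of the 2086 tested genes (8.10%) were.

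The 12 largest rises were taken among called genes with a mean of at least 20 UMIs over the 4 sums with an Mki67 UMI. Kpna2, a nuclear import receptor, stood at 144, 187, 169 and 357 CPM with an Mki67 UMI and at 37.0, 35.9, 70.9 and 99.2 CPM without. It rose by 1.66 ± 0.27 on the log2 scale (SE; edgeR FDR 0.000112). All 4 libraries showed the rise, and the classes did not overlap. Cenpf, a kinetochore protein of late G2, stood at 1305, 1480, 1249 and 1119 CPM against 547, 350, 514 and 545 CPM. Its log2 fold change was 1.42 ± 0.13 (edgeR FDR 1.75e-08). Prc1, which bundles microtubules at the spindle midzone, stood at 1073, 1225, 1160 and 1214 CPM against 547, 422, 382 and 558 CPM, a log2 fold change of 1.37 ± 0.13 (edgeR FDR 1.76e-08). For both genes every library with an Mki67 UMI lay above every one without.

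Others of the 12 spanned kinases, motors and the degradation machinery. The kinetochore motor Cenpe had a log2 fold change of 1.64 ± 0.20, the mitotic kinases Plk1, Aurkb and Aurka had 1.43 ± 0.25, 1.30 ± 0.21 and 1.26 ± 0.24, and the spindle motor Kif11 had 1.35 ± 0.28. Ube2c, the ubiquitin-conjugating enzyme that works with the anaphase-promoting complex, had 1.37 ± 0.13. Pimreg had 1.42 ± 0.24 and Arhgap11a 1.38 ± 0.32. Arhgap11a was higher in 3 of 4 libraries and the others named here in all 4. The edgeR FDR of these 8 genes ran from 1.76e-08 for Ube2c to 0.00731 for Arhgap11a.

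Of 48 tested genes of the G2 and M phase list, 34 were higher at FDR under 0.05, 17 of them by more than 2-fold, and none was lower, against 3.31% and 1.44% of all tested genes. The median log2 fold change of the list was 0.91, against -0.01 over all tested genes. Of 33 tested S phase genes none passed in either direction, and their median was -0.19. The replication helicase genes Mcm4, Mcm2, Mcm3 and Mcm6 had log2 fold changes of -1.05 ± 0.32, -0.87 ± 0.27, -0.72 ± 0.22 and -0.74 ± 0.25, with edgeR FDR of 0.0633, 0.0767, 0.0682 and 0.108. For Mcm2 the levels were 107, 51.0, 76.0 and 47.6 CPM with an Mki67 UMI and 163, 215, 115 and 186 CPM without, so the classes did not overlap although the test was not passed. Pclaf (0.02 ± 0.09) and Rrm2 (0.11 ± 0.10) were close to equal in both classes.

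Among chromatin genes, 5 of 18 tested passed at FDR under 0.05, against 3.31% of all tested genes in this direction: the polycomb methyltransferase Ezh2 (0.95 ± 0.22), the histone variants H2afx (1.11 ± 0.23) and H2afz (0.33 ± 0.07), Hmgb2 (0.59 ± 0.08) and Incenp (0.96 ± 0.25). Dlx1 did not pass (0.02 ± 0.15), nor did any of 24 tested neuroblast migration genes, of 12 stem cell and astroglial genes or of 3 Notch pathway genes, against 3.31% higher and 0.288% lower over all tested genes, so nothing is read from these counts. Of the 6 genes lower at FDR under 0.05, named here after their values were seen, the actin-binding thymosins Tmsb10 (-0.36 ± 0.07) and Tmsb4x (-0.30 ± 0.07) were the most abundant, and Txnl4a, Hist1h2bc, Mrpl34 and Rps15a completed the list.

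**Figure D3:**
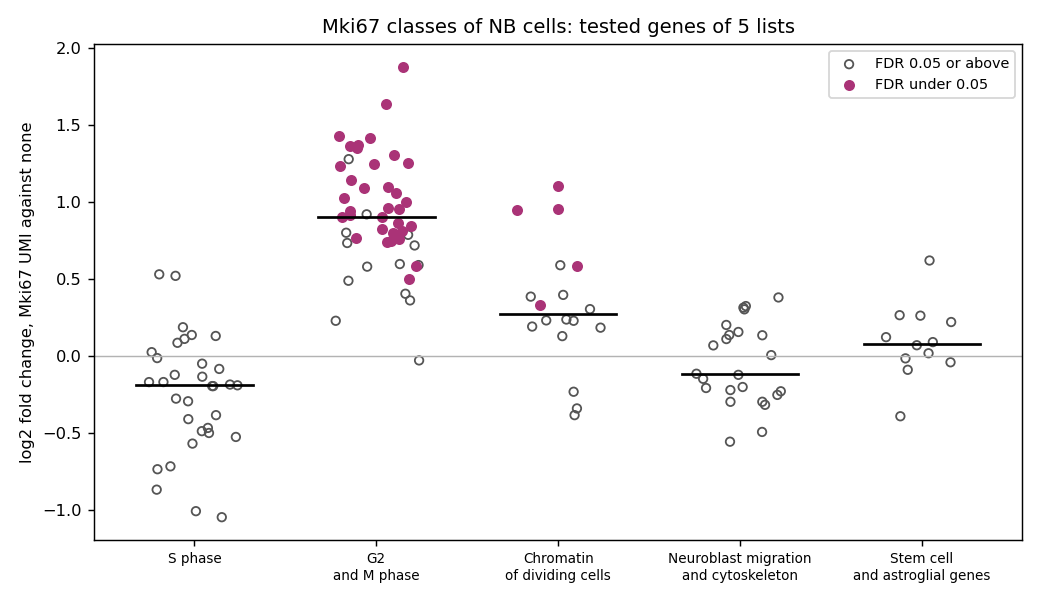
Log2 fold change between NB cells with and without an Mki67 UMI for every tested gene of 5 lists (filled, FDR under 0.05 by edgeR; black bars, list medians). The G2 and M phase genes have a median of 0.91, with 34 of 48 filled, while the S phase genes have a median of -0.19, with none filled.

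Cells with an Mki67 UMI were deeper, so the split was repeated at equal depth. When every NB cell was first thinned to 1000 UMIs and then split, 709 genes could be tested, without WT replicate 2, which had only 9 positive cells left. Then 4 genes rose, namely Aurka, Ccnb1, Cdc20 and Nusap1, and none fell. In that setting Cenpf had a log2 fold change of 0.73 and Ube2c of 0.87. Splitting instead on Top2a, also on the G2 and M phase list, gave 92 higher and 5 lower genes of 1751 tested, of which 23 were among the 30.

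The promoters of these genes were searched for motifs known from cell cycle regulation. A pair of short motifs are textbook features of G2 and M phase promoters: the core of the cell cycle genes homology region (CHR), TTTGAA, and the CCAAT box, CCAAT. S phase promoters often carry E2F sites, searched here by 3 core sequences, of which the first was TTCCCGC, the second was written TTGGCGC, and the last was TTCGCGC. Windows of 300 bases, from 250 before to 50 after the RefSeq start site (build GRCm38.p6), were searched on both strands. The first window listed was used for each gene, and a CCAAT box may overlap another or TTGGCGC. The 3 called genes with the lowest FDR, Cenpf, Ube2c and Prc1, are shown with Pclaf, the S phase gene that was level between the classes. Capitals mark CHR cores, CCAAT boxes and E2F cores on either strand.
Cenpf (chr1:189688037-189688336, minus strand): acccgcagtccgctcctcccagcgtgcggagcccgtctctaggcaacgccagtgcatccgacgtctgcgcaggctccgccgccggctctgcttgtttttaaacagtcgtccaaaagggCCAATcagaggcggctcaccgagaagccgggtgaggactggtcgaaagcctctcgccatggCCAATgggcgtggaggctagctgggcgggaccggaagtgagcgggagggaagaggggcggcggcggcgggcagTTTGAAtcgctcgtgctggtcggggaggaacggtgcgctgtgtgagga
Ube2c (chr2:164769679-164769978, plus strand): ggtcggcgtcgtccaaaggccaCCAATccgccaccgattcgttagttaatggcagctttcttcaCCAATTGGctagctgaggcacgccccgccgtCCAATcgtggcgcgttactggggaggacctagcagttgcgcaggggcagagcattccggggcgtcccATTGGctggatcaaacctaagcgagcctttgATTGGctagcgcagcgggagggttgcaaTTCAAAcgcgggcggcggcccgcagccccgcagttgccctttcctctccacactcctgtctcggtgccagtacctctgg
Prc1 (chr7:80294201-80294500, plus strand): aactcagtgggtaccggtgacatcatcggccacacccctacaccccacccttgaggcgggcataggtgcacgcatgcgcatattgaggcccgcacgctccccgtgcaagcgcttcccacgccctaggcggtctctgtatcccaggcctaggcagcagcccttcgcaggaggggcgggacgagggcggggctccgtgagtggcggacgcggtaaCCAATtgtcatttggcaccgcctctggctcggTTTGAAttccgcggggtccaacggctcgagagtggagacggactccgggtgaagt
Pclaf (chr9:65890073-65890372, plus strand): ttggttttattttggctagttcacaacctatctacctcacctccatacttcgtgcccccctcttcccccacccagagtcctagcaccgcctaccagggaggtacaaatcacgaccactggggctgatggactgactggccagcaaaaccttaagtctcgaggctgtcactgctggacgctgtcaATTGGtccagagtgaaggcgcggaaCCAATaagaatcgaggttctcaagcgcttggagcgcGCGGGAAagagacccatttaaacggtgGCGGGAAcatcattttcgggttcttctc

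Cenpf, Ube2c and Prc1 each hold 1 CHR core, 2 bases after the start site in Cenpf, 29 before it in Ube2c and 5 before it in Prc1. Upstream of it they hold 2, 6 and 1 CCAAT boxes. Pclaf holds no CHR core in this window, 2 CCAAT boxes and 2 E2F cores written GCGGGAA. Of the 30 genes higher with an Mki67 UMI, 24 had a window (those without included Aurkb, Gm3550, H2afx, Pimreg and Tpx2). A CHR core was found in 15 of the 24 (62.5%), against 14.5% of 1652 tested genes and 18.1% of all 27025 RefSeq genes with a window. A CCAAT box was found in 22 (91.7%), against 44.2% and 37.9%, and both together in 14 (58.3%), against 7.08% and 7.12%. Of the 30 genes, 17 are on the G2 and M phase list. In that list 35 of 51 windows (68.6%) held a CHR core, 39 (76.5%) a CCAAT box and 29 (56.9%) both. The shares of the called genes for the CHR core and for both were near these. In the S phase list, 5 of 37 windows (13.5%) held a CHR core and 23 (62.2%) a CCAAT box. Any E2F core was found in 21 of these windows (56.8%) and in 4 of the 24 (16.7%), against 19.4% of tested genes and 8.21% of all genes. These are matches of letters, and no binding was measured.

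NB cells made up a larger share of 1 Setd1a+/- library than of the other 3 libraries. They were 2.41% and 1.56% of annotated cells in WT and 5.64% and 2.20% in Setd1a+/-. The mean difference, Setd1a+/- minus WT, was 1.94 percentage points, and the genotypes overlapped (two-sided exact permutation test over 4 libraries without pairing, p = 0.667, smallest possible p 0.333). Within each replicate number the share was higher in Setd1a+/-, by 3.23 and 0.645 points, which with 2 pairs was not tested. Without Setd1a+/- replicate 1 the difference was 0.22 points. With medium spiny neurons left out of the denominator the shares were 3.95% and 3.15% in WT and 7.44% and 6.88% in Setd1a+/-. Those groups did not overlap, and the exact permutation p was the smallest possible, 0.333. With oligodendrocytes left out instead, an alternative chosen after seeing the data, the shares were 2.96%, 1.79%, 7.51% and 2.27%, and the genotypes overlapped (exact permutation p = 0.667). Dissociation sets which cells reach the droplets, so neither share is a count of cells in the tissue.

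The share of NB cells with an Mki67 UMI was higher in the replicate 1 library of each genotype. It was 46.7% (Wilson 95% interval 37.4 to 56.2%) and 28.6% (18.9 to 40.7%) in WT, and 43.0% (36.5 to 49.7%) and 30.9% (20.3 to 44.0%) in Setd1a+/-. The genotypes overlapped, with a difference of -0.67 points (exact permutation p = 1). After thinning to 1000 UMIs per cell, 21 of 105, 9 of 63, 38 of 214 and 12 of 55 cells had an Mki67 UMI, and the difference was 2.64 points (exact permutation p = 0.667). With Top2a in place of Mki67 they were 71.4%, 68.3%, 63.1% and 69.1%.

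**Figure D4:**
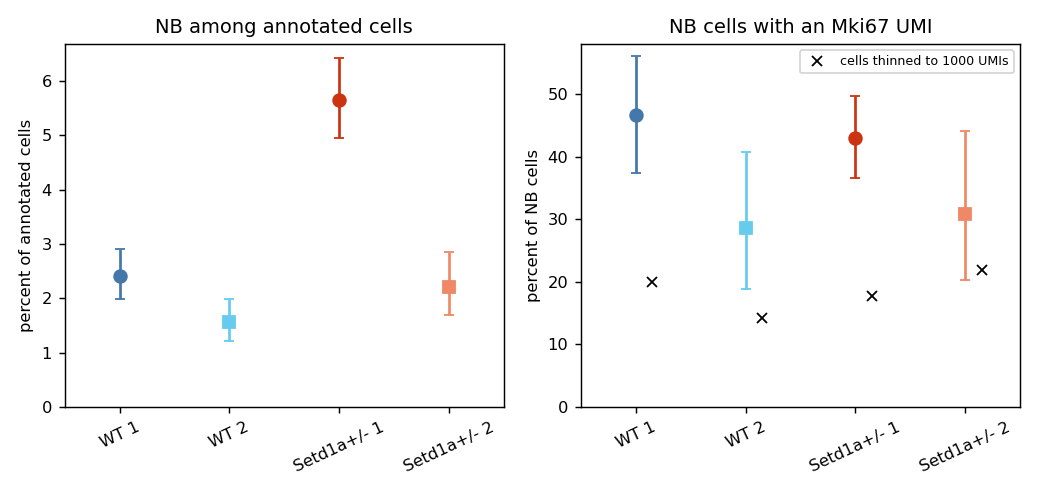
Left, NB cells as a percent of annotated striatal cells in each library, and right, the percent of NB cells with an Mki67 UMI (bars, Wilson 95% intervals for counting error; crosses, the same share after thinning every cell to 1000 UMIs). Setd1a+/- replicate 1 is highest at the left with 5.64%, and at the right both replicate 1 libraries are highest until cells are thinned.

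No gene passed the unpaired test between Setd1a+/- and WT NB cells. Counts summed over all NB cells of a library were compared between 2 Setd1a+/- and 2 WT libraries with edgeR's quasi-likelihood test. Of 3598 genes tested, none was called (0.0%) at FDR under 0.05 and fold change above 2. At an unadjusted p under 0.05 there were 128 genes (3.56%), and DESeq2 called none, with 16 at that p. With the replicate number as a block, 3 genes were called (0.0834%), and they are described below. By the study's methods this number pairs WT with Setd1a+/- libraries. The smallest library held 55 NB cells, and in sums of this kind fewer cells of a state and less RNA per cell cannot be told apart.

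The 10 genes with the smallest p in the unpaired test are given as values, since it called none. The edgeR FDRs given with them are from that test, and those with the replicate block follow below. H1f0, the linker histone of non-dividing cells, stood at 156, 200, 73.5 and 89.7 CPM (log2 fold change -1.13 ± 0.31, edgeR FDR 0.884). Apoe, a lipid carrier of glia, stood at 418 and 623 CPM against 251 and 310 CPM (-0.87 ± 0.25, edgeR FDR 0.884). The WT replicate 1 cell rich in Lyz2 held 29 of the 123 Apoe UMIs of its library. Ctsb, a lysosomal protease gene, stood at 210, 159, 109 and 65.2 CPM (-0.92 ± 0.29), and the same cell held 14 of its 62 UMIs in that library. Without the 5 blood-gene cells the log2 fold changes of Apoe and Ctsb were -0.74 and -0.68, against -0.87 and -0.92 with them. Penk, the proenkephalin gene of D2 neurons, stood at 112 and 117 CPM against 55.1 and 48.9 CPM (-1.05 ± 0.36). In WT replicate 1, 17 of the 33 Penk UMIs lay in 1 cell, and without it that library stood at 55.9 CPM, level with Setd1a+/- replicate 1. A Penk UMI was found in 13.3% and 30.2% of WT and 13.6% and 9.09% of Setd1a+/- NB cells, so the genotypes overlapped in this share. Penk is itself 1 of the 8 medium spiny neuron markers. The other 7 summed to 214, 206, 157 and 196 CPM, and their part in the Penk values was not tested.

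The lysosomal activator gene Gm2a stood at 71.3 and 99.8 CPM against 28.4 and 32.6 CPM (-1.45 ± 0.45), from only 21, 17, 17 and 4 UMIs. The protease inhibitor gene Serpine2 stood at 207 and 258 CPM against 119 and 155 CPM (-0.80 ± 0.27). Higher values in Setd1a+/- were seen in Pes1, a ribosome biogenesis factor (30.5 and 17.6 CPM against 70.2 and 81.5 CPM, 1.53 ± 0.49). The Pes1 values came from only 9, 3, 42 and 10 UMIs. The helicase gene Ddx18 (0.96 ± 0.32), Tssc4 (1.12 ± 0.34) and the unnamed transcript Gm17750 (0.92 ± 0.26) had values in the same direction. In all 10 the genotypes did not overlap, which the choice by smallest p makes likely. With the cell holding most UMIs of each gene left out, a check chosen after seeing the data, they still did not overlap, but by less than 1 CPM for Penk and by little for Gm17750 (193 and 229 CPM against 468 and 236 CPM), Serpine2 (161 and 258 CPM against 119 and 155 CPM) and Apoe (324 and 623 CPM against 251 and 310 CPM).

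The replicate block gave 3 calls. Igkc and Igha were counted only in the 2 replicate 1 libraries, 895 and 773 UMIs for Igkc and 214 and 167 for Igha, each from 1 cell per library. Rpgrip1, a gene of the photoreceptor cilium, stood at 40.7, 82.2, 80.2 and 293 CPM, with a blocked log2 fold change of 1.48 (edgeR FDR 0.00707). Gm17750 also had an edgeR FDR of 0.0450 with the block, at a log2 fold change of 0.91 under the fold cutoff, and of 0.166 when the 5 blood-gene cells were left out as well. In Setd1a+/- replicate 2, 11 of the 36 Rpgrip1 UMIs lay in 1 cell. Without the 5 blood-gene cells Rpgrip1 was the only blocked call (1.47, edgeR FDR 0.0180). Without the block its log2 fold change was 1.38 ± 1.05 (edgeR FDR 1), and the genotypes overlapped, with Setd1a+/- replicate 2 well above the other 3.

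No list member passed by genotype. Of 41 S phase, 57 G2 and M phase, 21 chromatin, 14 transcription factor and 26 neuroblast migration genes tested, none had an FDR under 0.05. Their median log2 fold changes were -0.05, -0.07, -0.03, 0.16 and 0.16, against 0.00 over all 3598 genes. Of the 57 G2 and M phase genes, 19 had a positive log2 fold change, against 1823 of all 3598. At an unadjusted p under 0.05, 1 of the 57 was higher and 5 were lower, against 1.83% and 1.72% of all genes. None of the other lists just given held more than 2 in a direction. The 17 tested stem cell and astroglial genes had a median of 0.33, with 3 at an unadjusted p under 0.05 in the higher direction and 2 in the lower. The highest and lowest among list members at that p were the immediate early genes Dusp1 (1.11) and Jun (1.10) and Penk (-1.05). Dlx1 averaged 418 CPM in WT and 455 CPM in Setd1a+/-, and Sox11 2124 and 2439 CPM.

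**Figure D5:**
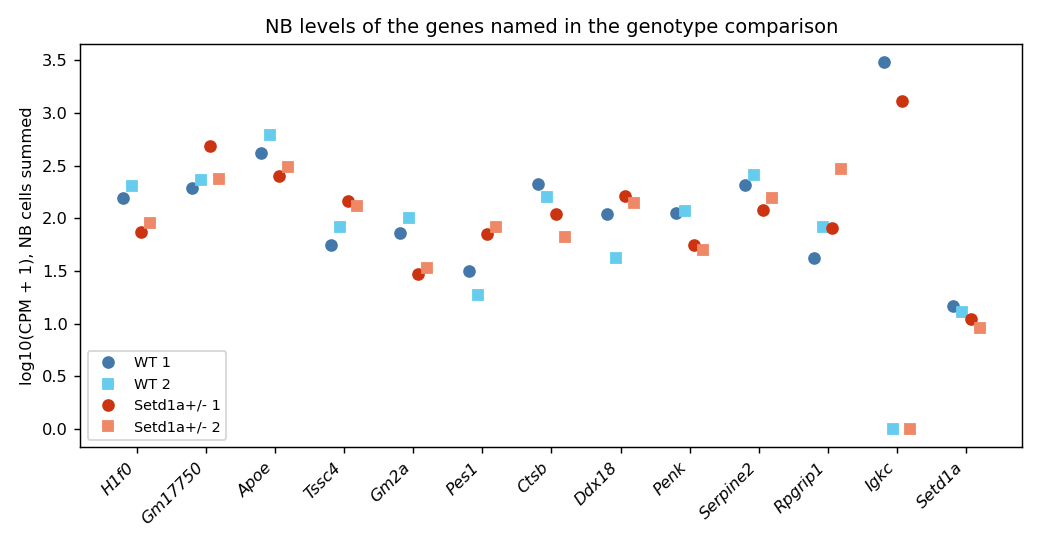
Levels (log10 of CPM + 1) in the summed NB cells of each library for the 10 genes with the smallest p by genotype and for Rpgrip1, Igkc and Setd1a. The genotypes are apart in the first 10 genes, of which none passed the unpaired test, while Igkc is at 0 in both replicate 2 libraries.

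The genotype effect differed between the Mki67 classes in 1 of 2086 genes (0.0479%, edgeR interaction test, FDR under 0.05), with 55 at an unadjusted p under 0.05. This was Ptgds, which encodes a prostaglandin D2 synthase abundant in oligodendrocytes and meninges. Its levels were 69.0, 272, 198 and 47.6 CPM in cells with an Mki67 UMI and 207, 843, 108 and 12.4 CPM in cells without. It was lower with an Mki67 UMI in both WT libraries and higher in both Setd1a+/- libraries (interaction log2 2.53 ± 0.40, edgeR FDR 0.00724). In Setd1a+/- replicate 2 these levels came from only 2 Ptgds UMIs against 1, too few to give a direction there. The highest cell held 65 of the 244 NB UMIs of Ptgds, in WT replicate 2 and without an Mki67 UMI. The summed oligodendrocyte markers of the NB cells were highest in that library, as given above (1163 CPM), and their part in the result was not tested. Without WT replicate 2 the edgeR FDR was 0.111, and without Setd1a+/- replicate 1 it was 0.977.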

How the data were processed

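Striatal NB cells were profiled by droplet single-cell RNA sequencing in 2 WT and 2 Setd1a+/- libraries. The authors aligned and counted reads with Cell Ranger 3.0.2 (build mm10 in the submitters' processing notes), filtered and clustered cells with Seurat 3.2.0 (at least 800 genes, under 10% mitochondrial UMIs) and deposited UMI counts per gene and cell with cell annotations. The annotation's UMI totals were a median of 89.2% to 90.0% of those in the matrices, and the matrices were used. No doublet removal is stated and none was run. The 4 libraries held 17440876 to 26277553 UMIs. Nothing says more than that each replicate number held 1 library of each genotype and that tissue of 2 mice was pooled. The p-values of the unpaired genotype tests and of the shares therefore measure the spread between these pools. Those of the class and interaction tests, with the library as a term, measure how class differences within a library vary between libraries.

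Counts were summed per library, or per library and Mki67 class, and tested with edgeR 4.0.16 (quasi-likelihood, TMM scaling, genes kept by filterByExpr at its count minimum of 10, p-values adjusted by Benjamini-Hochberg over every gene tested), in R 4.3.3, with scripts tested on simulated data. DESeq2 1.42.0, no TMM, no filter, thinning to 1000 UMIs, other cell sets and omission of each library were alternatives. Mki67 classes shared the library as a term. Shares were compared by exact permutation over libraries. The same replicate number pairs WT with Setd1a+/- libraries by the study's methods, and replicate differences of the genotypes correlated at 0.424 over 983 genes (0.280 over 967 without 5 cells rich in blood cell genes).

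Genes named were the 25 with the highest NB ratio to the next type (0.5 CPM added), the 12 largest called rises and falls by class, the called genes by genotype or else the 10 smallest p, called interactions up to 5, the members of each list with most NB UMIs, and Setd1a. Predicted genes and ribosomal or mitochondrial genes were not named among the first 2 groups. The cells, lists and tests were chosen with earlier results of these data known. Cells with at least 10 UMIs of Igkc, Hbb-bs, Ppbp or Lyz2 were left out in an alternative added after the data were seen, as were oligodendrocyte progenitor-like cells. Promoter windows came from RefSeq (GRCm38.p6). Some genes that these naming rules cover are not reported here.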

Additional observations from a re-analysis of the deposited data

Results flagged for a closer look

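The Ptgds result was marked because its genotype effect differed between NB cells with and without an Mki67 UMI (interaction log2 2.53, edgeR FDR 0.00724). Its UMI sums were 11, 16, 60 and 2 in cells with an Mki67 UMI (WT replicates 1 and 2, Setd1a+/- replicates 1 and 2) and 28, 94, 32 and 1 in cells without. Ptgds was found in 39 NB cells, and 26.6% of its UMIs lay in 1 cell.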

How the results depend on the processing

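The rises with an Mki67 UMI, 30 in all, numbered 15 with DESeq2, 4 with cells thinned to 1000 UMIs (709 genes tested) and 92 with Top2a as the splitting gene. Their number was within 1.5-fold under library-size scaling, without a filter, in Dlx-positive cells, without a library term and without progenitor-like or blood-gene cells (25 to 31). In several of these settings the genes called changed more than their number. Of the 30, 13 were called with DESeq2, 3 after thinning, 17 without a filter, 22 in Dlx-positive cells and 24 without a library term. Omitting each library in turn kept 17 to 26 of them. Falls, 0 in all, numbered 4 without a filter, 5 with Top2a and 1 in Dlx-positive cells. Omitting each library in turn gave 23 to 33 rises, 0 to 2 falls, 2 to 6 genotype calls and 0 to 3 interaction calls. Genotype calls, 0 in all, numbered 1 without a filter (Lyz2), 3 with the replicate block and 1 with the block and without the 5 blood-gene cells, and remained at 0 with DESeq2, library-size scaling, a fold cutoff of 1.5 and either Mki67 class alone. Without WT replicate 1, 4 of the 6 calls were globin genes, which 1 cell of WT replicate 2 supplied; without WT replicate 2 the 2 calls were Lyz2 and Wfdc17. Without Setd1a+/- replicate 1 the 6 calls included Rpgrip1 and Ppbp, and without Setd1a+/- replicate 2 the 5 calls included Gm17750 and Lyz2. For Igkc and Igha the fitted log2 fold change was 10.7 and 8.76 without WT replicate 1 and -11.24 and -9.25 without Setd1a+/- replicate 1, each against libraries at 0, so these fitted values are no measure of size. The NB share difference ran from 0.22 to 3.66 points when a library was omitted and was 1.94 points as a replicate block, the mean of 3.23 and 0.645 points. The Mki67 share difference ran from -9.72 to 8.38 points, with 8.38 without WT replicate 1 and 5.37 without Setd1a+/- replicate 2, and was 2.64 points after thinning. The cause of these shifts was not tested beyond the cells named. With 55 to 214 NB cells a library, 1 cell can set a library's sum for a gene.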
